A study of Homo sapiens with 4 samples.

Results

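The core proteins of the small nuclear ribonucleoproteins (snRNPs) are represented by 34 protein-coding genes in these data, chosen by symbol alone. They are the genes whose symbols start with SNRP (12 genes), with LSM and a digit (13 genes), or with SF3A or SF3B and a digit (9 genes), out of 61543 genes counted. No measured value entered the choice. The symbols also take in LSM1, LSM12, LSM14A and LSM14B, which are counted with the set but are not core proteins of snRNPs. After a filter on low counts 33 of the 34 were tested, and SNRPN was not.

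Most spliceosomal snRNPs are built on a small nuclear RNA that carries a ring of Sm proteins, encoded by part of the SNRP genes. The other SNRP genes here encode proteins specific to the U1 or U2 snRNP. A related ring of LSM2 to LSM8 sits on U6 RNA in the nucleus, and one of LSM1 to LSM7 binds the ends of messages in the cytoplasm and promotes their decapping. The SF3A and SF3B complexes belong to the U2 snRNP, which recognizes the branch site of introns.

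The RNA came from medium conditioned by HEK293T cells, an embryonic kidney line of human origin that carries the SV40 large T antigen. The groups were EPN24-Cas13d with 2 libraries and EPN24 with 2 libraries. Per the series' design text, EPN24-Cas13d is a fusion protein that forms secreted nanocages around the RNAs it binds, in a method named POND-seq, and the comparison asks which RNAs Cas13d binds in vivo. Cas13d is an RNA-guided RNA-cutting enzyme. The titles of the EPN24 libraries name no Cas13d. Both groups share the line, the growth medium and the extraction with ERCC spike-in RNA, and the labels do not give a guide RNA, a promoter, a time of collection or whether the replicates are separate cultures. The p-values therefore reflect library-to-library spread alone, and that spread may be technical.

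Gene counts were 5097332 and 4863449 in EPN24-Cas13d and 1830860 and 1903492 in EPN24. ERCC transcripts took 1.73% and 1.66% of the counts in EPN24-Cas13d, against 19.6% and 20.9% in EPN24. The floor of 3 counts corresponds to 0.721 and 0.755 CPM (counts scaled to library size, here with TMM factors) in EPN24-Cas13d and to 1.34 and 1.42 CPM in EPN24. The 370 olfactory receptor genes, taken here as a low background, held 0.175 and 0.140 counts per kb in EPN24-Cas13d and 1.83 and 1.42 counts per kb in EPN24. Whether these cells express any of them was not tested. All 7 HEK293T marker genes examined had counts in every library, from 3.85 (LHX1) to 1821 (VIM) CPM in EPN24-Cas13d and from 4.73 (LHX1) to 157 (VIM) CPM in EPN24. For VIM, NEFL, KRT8 and KRT18 both EPN24-Cas13d values lay above both EPN24 values, and for PAX2, LHX1 and NEFM they lay below. The 7 markers of blood, liver, endothelium and muscle had 0 to 2.52 CPM in EPN24-Cas13d and 0 to 22.7 CPM (MYH7) in EPN24. PTPRC, CD3E, PECAM1 and MYH7 exceeded LHX1 in both EPN24 libraries, FGB only in replicate 2, and HBB and ALB in neither. In EPN24 replicate 2 MYH7 also exceeded PAX2, KRT8 and KRT18, so these markers separate cell types poorly in EPN24. In these bulk samples, fewer cells or particles of a kind and less RNA in each cannot be told apart.

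Relative to all other messages, the snRNP core set split: 8 members were higher in EPN24-Cas13d than in EPN24, 19 were lower and 6 did not pass an adjusted p of 0.05 (quasi-likelihood test of edgeR, Benjamini-Hochberg adjusted over 20476 genes). With scaling to the ERCC transcripts the split was 23 higher and 2 lower, with a GC trend removed 12 higher and 12 lower, and with a length trend removed 14 higher and 15 lower. Under TMM, 24.2% of the tested members were higher and 57.6% lower, against 32.6% higher and 48.2% lower of all tested genes and 37% higher and 42.9% lower of protein-coding genes (with ERCC scaling 65.7% and 1.92% of the protein-coding genes). The median log2 fold change was -1.49 over the tested members, -0.96 over all tested genes and -0.40 over protein-coding genes. In 31 of the 33 tested members the libraries of the 2 groups did not overlap in CPM, a share near the 91.2% of all tested genes.

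Levels in EPN24-Cas13d were low for many of the lower members. Among the tested members, 12 did not reach the filter's minimum (2.96 CPM before TMM) in both EPN24-Cas13d libraries and so passed through EPN24: SNRPB2, SNRPD1, SNRPE, SNRPF, SNRPG, LSM1, LSM3, LSM5, LSM6, LSM7, LSM8 and SF3B6. All 12 were lower under TMM, a direction that passing only through EPN24 favours, so it is not a separate result. With ERCC scaling LSM1 and LSM7 were higher. The 12 are included in the count, share and median of lower members given above. The other 21 reached the filter's minimum in both groups, with 8 higher, 7 lower and 6 not called. No share over all tested genes that passed in the same way is given here. Neither count can therefore be set beside like genes.

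ERCC scaling, which sets the libraries to equal spike-in counts per volume of supernatant, moved the median of all tested genes by 3.34, to 2.38. On that scale 58.4% of all tested genes were higher and 2.33% lower in EPN24-Cas13d. Of the 19 members lower under TMM, 9 were higher with ERCC scaling, 8 were not called and 2, SNRPF and SF3B6, stayed lower. All 6 members without a TMM call were higher with ERCC scaling. The directions below are those under TMM, so they are relative to the other genes of the same library, and the ERCC value is given beside the fold.

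**Figure D1:**
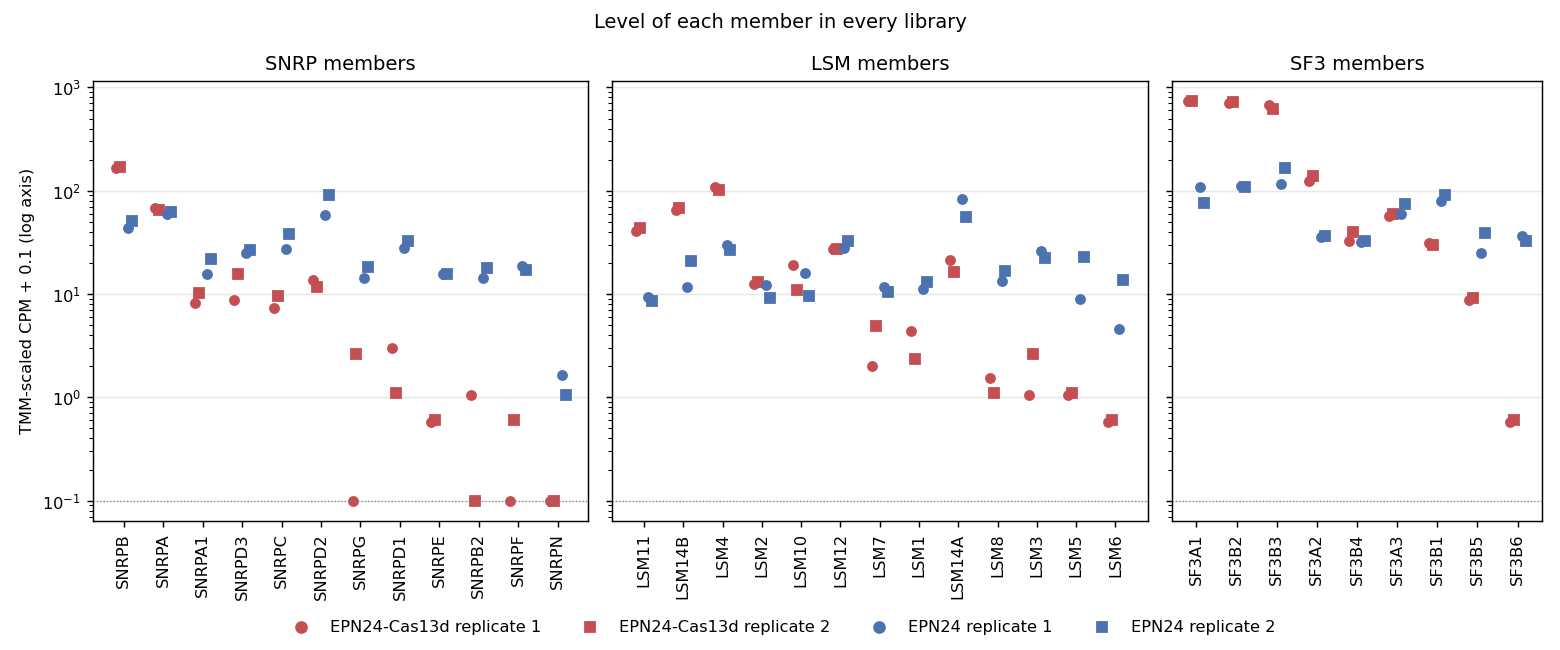
TMM-scaled CPM plus 0.1 on a log axis for each of the 34 members in each of the 4 libraries, one panel per family, with EPN24-Cas13d left of EPN24. SF3A1, SF3B2 and SF3B3 lie between 614 and 739 CPM in the EPN24-Cas13d libraries, while SNRPF, SNRPE, SNRPB2, LSM6 and SF3B6 lie near 1 CPM or below there.

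The members with the largest and the most negative fold in each family are shown by the first 150 bases of their coding part, because members with opposite folds differed in base content. Sequences are 5′ to 3′ on the coding strand from GENCODE release 29 on GRCh38, and capitals mark runs of at least 4 G or C bases.
SNRPB: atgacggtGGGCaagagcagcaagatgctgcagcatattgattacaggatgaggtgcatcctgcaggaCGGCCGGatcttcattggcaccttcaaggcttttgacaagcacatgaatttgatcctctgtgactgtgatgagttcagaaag
SNRPF: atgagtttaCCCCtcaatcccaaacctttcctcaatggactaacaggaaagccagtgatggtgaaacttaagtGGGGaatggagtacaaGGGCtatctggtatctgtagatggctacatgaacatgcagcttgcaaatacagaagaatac
LSM11: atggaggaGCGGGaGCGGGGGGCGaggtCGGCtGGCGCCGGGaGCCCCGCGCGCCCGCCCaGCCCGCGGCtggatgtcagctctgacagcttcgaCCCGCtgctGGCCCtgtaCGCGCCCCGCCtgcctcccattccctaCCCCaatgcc
LSM6: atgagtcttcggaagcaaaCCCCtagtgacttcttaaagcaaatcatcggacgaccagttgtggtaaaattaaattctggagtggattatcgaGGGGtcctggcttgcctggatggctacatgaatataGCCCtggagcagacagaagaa
SF3A1: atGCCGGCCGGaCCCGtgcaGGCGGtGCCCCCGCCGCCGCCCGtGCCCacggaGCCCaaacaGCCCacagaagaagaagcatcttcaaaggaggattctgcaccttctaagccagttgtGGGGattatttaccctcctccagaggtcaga
SF3B6: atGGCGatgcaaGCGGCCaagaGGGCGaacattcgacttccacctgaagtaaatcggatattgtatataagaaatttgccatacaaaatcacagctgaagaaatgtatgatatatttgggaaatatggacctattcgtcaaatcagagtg
In the window of LSM11 79 of the 150 bases lay in 10 such runs, and in that of SF3A1 51 bases lay in 8 runs. LSM6 had 12 bases in 3 runs, SNRPF 12 in 3, SF3B6 15 in 3 and SNRPB 11 in 2. The start of SNRPB therefore resembled the lower members in this count, and its high GC content (59.8% over its coding part against 48.7% in the window) lay further downstream.

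Of the Sm ring, SNRPB alone was higher in EPN24-Cas13d among the 7 tested genes, and the other 6 were lower, of which SNRPD1, SNRPE, SNRPF and SNRPG had passed the filter through EPN24. The median log2 fold change of the 7 was -3.66 (-0.31 with ERCC scaling, 3 higher and 1 lower). SNRPB, which encodes SmB/B′ and lies on chromosome 20, had 167 and 169 CPM in EPN24-Cas13d and 43.3 and 51.4 CPM in EPN24. Its log2 fold change was 1.83 (SE 0.16, adjusted p = 8.91e-08; 5.20 with ERCC scaling). An unnamed protein-coding gene annotated over SNRPB on the same strand, ENSG00000256566, had 241.5 and 210.5 counts in EPN24-Cas13d against 21.5 and 30.5 in EPN24, so reads could be split between the pair. SNRPN, the close SNRPB paralog used mainly in brain, had no count in EPN24-Cas13d and 3.5 and 2 counts in EPN24.

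All 3 SmD genes were lower. SNRPD2 had 13.5 and 11.6 CPM in EPN24-Cas13d against 57.5 and 90.4 CPM in EPN24, a log2 fold change of -2.55 (SE 0.26, adjusted p = 8.31e-07; 0.82 with ERCC scaling). SNRPD1 had 2.88 and 1.01 CPM in EPN24-Cas13d against 28.1 and 32.7 CPM in EPN24, a log2 fold change of -3.92 (adjusted p = 2.42e-06; -0.59 and not called with ERCC scaling). SNRPD3 had 8.69 and 15.4 CPM in EPN24-Cas13d against 24.7 and 26.5 CPM in EPN24. Its log2 fold change of -1.09 (adjusted p = 0.00832; 2.28 with ERCC scaling) became -0.67 (adjusted p = 0.209) without EPN24-Cas13d replicate 1. It was also not called with the GC trend removed (-0.70, adjusted p = 0.0775), the length trend removed (-0.26, adjusted p = 0.481), without a filter (-0.73, adjusted p = 0.0735) or in DESeq2's Wald test (-0.92, adjusted p = 0.196). Another protein-coding gene on the same strand, ENSG00000286070, overlaps SNRPD3 and had 47.67 and 62.33 counts in EPN24-Cas13d, against 60.83 and 48 in EPN24.

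SNRPE, SNRPF and SNRPG, which encode the smallest ring proteins, were at or near 0 in EPN24-Cas13d. SNRPF had 0 and 2 counts in EPN24-Cas13d against 42 and 36 counts in EPN24, and the log2 ratio of the summed counts, scaled to CPM, was -6.19, with an exact binomial 95% interval of -9.26 to -4.29. SNRPE had 2 and 2 counts in EPN24-Cas13d against 35 and 33 counts in EPN24, a log2 count ratio of -4.99 (interval -6.91 to -3.57). SNRPG differed between its EPN24-Cas13d libraries, with 0 and 10 counts there and 32 and 38 counts in EPN24. Its log2 count ratio was -3.71 (interval -4.83 to -2.75), and its fitted fold of -3.66 became -8.49 without EPN24-Cas13d replicate 2, that of SNRPF -8.64. The remaining EPN24-Cas13d library is then at 0 and the fitted value depends on the prior count. All of these were lower in edgeR's test (adjusted p = 7.57e-06 for SNRPF, 1.2e-05 for SNRPE and 6.25e-04 for SNRPG). With ERCC scaling SNRPF was still lower at -2.78 (adjusted p = 0.0287), while SNRPE at -1.61 and SNRPG at -0.31 were not called. With the GC trend removed SNRPG was not called (-1.14, adjusted p = 0.220). The intervals here and below cover counting error only, since reads were amplified without named molecular identifiers. Counts may hold both mates of a pair, as most whole values were even. The intervals would then be too narrow even for counting error.

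Among the 4 proteins specific to U1 or U2, 3 were lower and SNRPA, for the U1 protein A, was not called. SNRPA had 68.0 and 65.7 CPM in EPN24-Cas13d against 59.5 and 62.0 CPM in EPN24, a log2 fold change of 0.14 (adjusted p = 0.48; 3.50 and higher with ERCC scaling, -0.51 and lower with the GC trend removed). SNRPC, for the U1 protein C, had 7.21 and 9.56 CPM in EPN24-Cas13d against 27.2 and 37.9 CPM in EPN24 (-1.95, adjusted p = 9.94e-05; 1.42 with ERCC scaling). Within each library SNRPA stood above SNRPC by a log2 ratio of 3.22 and 2.76 in EPN24-Cas13d and of 1.12 and 0.71 in EPN24. The difference of 2.07 between groups had an exact two-sided permutation p of 0.333, the smallest that 2 against 2 libraries allow.

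The U2 relative of the protein from SNRPA is encoded by SNRPB2. It had 4 and 0 counts in EPN24-Cas13d, against 32 and 37.5 counts in EPN24. The log2 count ratio was -5.03 (interval -6.95 to -3.61), and the fitted value of -4.93 (adjusted p = 5.47e-05; -1.65 and not called with ERCC scaling) became -8.46 without EPN24-Cas13d replicate 1, again with the remaining library at 0. SNRPA1, whose product binds U2 RNA together with that of SNRPB2, had 8.17 and 10.1 CPM in EPN24-Cas13d against 15.6 and 21.8 CPM in EPN24 (-1.03, adjusted p = 0.0169; 2.34 with ERCC scaling and 1.38 with the GC trend removed). It was not called without EPN24-Cas13d replicate 1 (-0.82, adjusted p = 0.162), EPN24-Cas13d replicate 2 (-1.12, adjusted p = 0.0631) or EPN24 replicate 2 (-0.85, adjusted p = 0.0587). Nor was it called with the length trend removed (-0.16, adjusted p = 0.683), without a filter (-0.68, adjusted p = 0.166) or in DESeq2's Wald test (-0.87, adjusted p = 0.278). The proteins of SNRPA and SNRPB2 are close in sequence, and the log2 ratio of SNRPA to SNRPB2, with 0.5 added to each count, was 7.50 ± 2.16 in EPN24-Cas13d and 1.92 ± 0.18 in EPN24 (SD, n = 2 each; exact two-sided permutation p = 0.333, the smallest that 2 against 2 libraries allow).

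**Figure D2:**
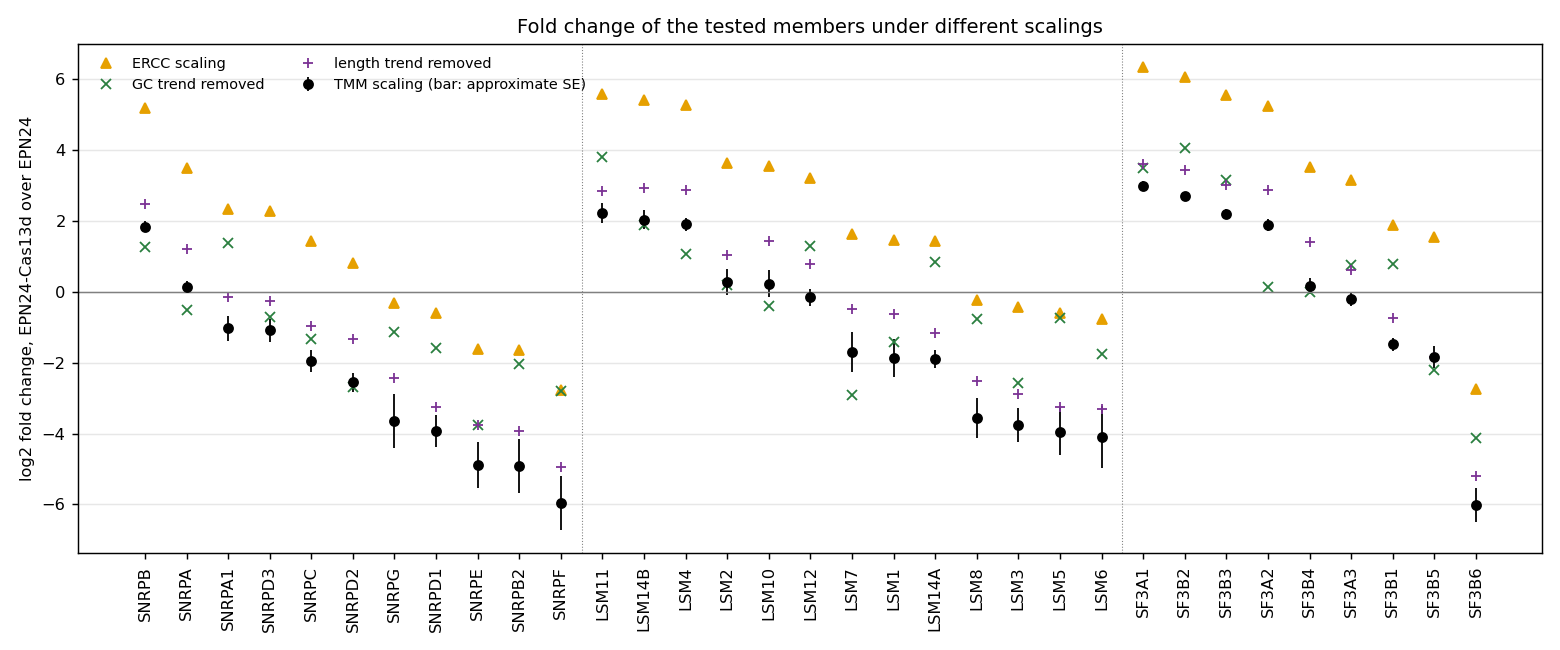
Log2 fold change of EPN24-Cas13d over EPN24 for the 33 tested members under TMM (black, bar: approximate SE), ERCC scaling, and with a GC or length trend removed, ordered within each family by the TMM value. Every ERCC value lies above its TMM value, and SNRPF and SF3B6 are below -2 under all 4.

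Of the LSM1 to LSM8 genes, 1 was higher, LSM2 was not called and the 6 lower ones had all passed the filter through EPN24. The 8 had a median of -2.72 (0.62 with ERCC scaling, 4 higher and 0 lower). The higher gene was LSM4, shared by both rings, with 110 and 102 CPM in EPN24-Cas13d against 29.9 and 26.5 CPM in EPN24. Its log2 fold change was 1.91 (SE 0.19, adjusted p = 4.59e-07; 5.26 with ERCC scaling). LSM2, also shared by both rings, had 12.5 and 13.1 CPM in EPN24-Cas13d against 12.04 and 8.99 CPM in EPN24 (0.28, adjusted p = 0.501; 3.62 and higher with ERCC scaling).

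LSM3, LSM5 and LSM6, also shared by both rings, had single to low double-digit counts in EPN24-Cas13d. LSM3 had 4 and 10 counts in EPN24-Cas13d against 58 and 47 in EPN24, a log2 fold change of -3.77 (adjusted p = 8.17e-06; -0.44 and not called with ERCC scaling). LSM5 had 4 and 4 counts in EPN24-Cas13d against 20 and 48 in EPN24 (-3.95, adjusted p = 1.12e-04; not called at -0.59 with ERCC scaling or at -0.75, adjusted p = 0.362, with the GC trend removed). LSM6 had 2 and 2 counts in EPN24-Cas13d against 10 and 29 in EPN24, a log2 count ratio of -4.19 with an interval of -6.13 to -2.72 (fitted -4.10, adjusted p = 7.84e-04; not called at -0.78 with ERCC scaling or at -1.77, adjusted p = 0.109, with the GC trend removed). In EPN24 the replicates of LSM5 and LSM6 differed more than those of LSM3, and LSM6 fell below the filter without EPN24 replicate 2. LSM7 had 1.92 and 4.78 CPM in EPN24-Cas13d against 11.6 and 10.4 CPM in EPN24 (-1.71, adjusted p = 0.0123; 1.63 with ERCC scaling). Without EPN24-Cas13d replicate 1 this was -1.13 (adjusted p = 0.134), with the length trend removed -0.48 (adjusted p = 0.441) and in DESeq2's Wald test -1.54 (adjusted p = 0.174). LSM7 shares its locus with ENSG00000273734 on the other strand, at 155.67 and 158 counts in EPN24-Cas13d, against 33.33 and 43.33 in EPN24, and no source used here gives the strand setting of the counting.

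The subunits that tell the cytoplasmic ring from the nuclear one are LSM1 and LSM8, and both were lower. LSM1 had 4.33 and 2.27 CPM in EPN24-Cas13d against 11.2 and 13.02 CPM in EPN24 (-1.87, adjusted p = 0.00498; 1.47 with ERCC scaling), which became -1.42 (adjusted p = 0.0554) without EPN24-Cas13d replicate 2. It was not called with the length trend removed (-0.64, adjusted p = 0.272) or in DESeq2's Wald test (-1.72, adjusted p = 0.115). LSM8 had 1.44 and 1.01 CPM in EPN24-Cas13d against 13.4 and 16.6 CPM in EPN24 (-3.56, adjusted p = 7.89e-05; not called at -0.24 with ERCC scaling or at -0.76, adjusted p = 0.272, with the GC trend removed). Per kb of all annotated exons, 17309 bases, LSM8 in EPN24 had 1.15 times the density of the olfactory receptor genes. Its principal transcript is far shorter, with 192, 291 and 822 bases in the 5′ UTR, coding part and 3′ UTR. Counts per kb of that transcript would be higher, so closeness to that background depends on the length used. The part of that background in the LSM8 difference was not tested.

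LSM10 and LSM11 replace a pair of Sm proteins in the U7 snRNP, which processes histone messages. LSM11 was the most raised LSM gene, with 40.4 and 43.8 CPM in EPN24-Cas13d against 9.37 and 8.52 CPM in EPN24. Its log2 fold change was 2.23 (SE 0.29, adjusted p = 7.76e-06; 5.58 with ERCC scaling). In EPN24 it had 1.82 times the olfactory receptor density, and with that density subtracted the fold was 2.38. LSM10 overlapped between groups, with 19.0 and 10.9 CPM in EPN24-Cas13d and 16.1 and 9.47 CPM in EPN24 (0.23, adjusted p = 0.593; 3.56 and higher with ERCC scaling, -0.40 and not called with the GC trend removed).

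The paralogs LSM14A and LSM14B, which bind messages in cytoplasmic granules, differed in opposite directions. LSM14B had 64.9 and 68.0 CPM in EPN24-Cas13d against 11.6 and 20.8 CPM in EPN24 (2.04, SE 0.26, adjusted p = 8.15e-06; 5.41 with ERCC scaling). LSM14A had 21.2 and 16.1 CPM in EPN24-Cas13d against 83.4 and 55.9 CPM in EPN24 (-1.90, SE 0.25, adjusted p = 1.1e-05; 1.43 with ERCC scaling and 0.85, higher, with the GC trend removed). The log2 ratio of LSM14B to LSM14A does not depend on the scaling between libraries, and it was 1.61 and 2.07 in EPN24-Cas13d against -2.82 and -1.41 in EPN24. LSM14B thus exceeded LSM14A in counts in both EPN24-Cas13d libraries and was below it in both EPN24 libraries (exact two-sided permutation p = 0.333, the smallest possible). LSM12, which binds the nucleotide NAADP as well as RNA, had 27.0 and 27.1 CPM in EPN24-Cas13d and 27.7 and 32.7 CPM in EPN24 (-0.16, adjusted p = 0.567; 3.21 and higher with ERCC scaling, 1.29 and higher with the GC trend removed).

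Of the 9 SF3 genes 4 were higher, 3 lower and 2 not called, with a median of 0.16 (3.52 with ERCC scaling, 8 higher and 1 lower). SF3A1, the large SF3A subunit that also contacts U1, had 735 and 739 CPM in EPN24-Cas13d against 109 and 76.0 CPM in EPN24. Its log2 fold change of 2.99 (SE 0.14, adjusted p = 1.51e-10; 6.34 with ERCC scaling) was the largest of the tested members. SF3A2 had 125 and 138 CPM in EPN24-Cas13d against 35.7 and 36.2 CPM in EPN24 (1.88, adjusted p = 1.91e-07; 5.24 with ERCC scaling, 0.13 and not called with the GC trend removed). SF3A3, the third SF3A subunit, did not follow: it had 56.2 and 59.1 CPM in EPN24-Cas13d and 59.3 and 74.8 CPM in EPN24 (-0.22, adjusted p = 0.292; 3.16 with ERCC scaling and 0.74 with the GC trend removed, both higher). It was called lower (-0.51, adjusted p = 0.0107) without EPN24 replicate 1. The log2 ratio of SF3A1 to SF3A3 was 3.70 and 3.64 in EPN24-Cas13d against 0.87 and 0.023 in EPN24.

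Of the 6 SF3B genes 2 were higher, 3 lower and 1 not called, with a median of -0.66 (2.70 with ERCC scaling, 5 higher and 1 lower). SF3B2, which with SF3B4 contacts the region upstream of the branch site, had 711 and 723 CPM in EPN24-Cas13d against 111 and 110 CPM in EPN24 (2.70, SE 0.11, adjusted p = 2.98e-11; 6.06 with ERCC scaling). SF3B3, a scaffold of the complex, had 669 and 614 CPM in EPN24-Cas13d against 116 and 167 CPM in EPN24 (2.19, SE 0.15, adjusted p = 5.75e-09; 5.56 with ERCC scaling). SF3B1, the subunit that clasps the branch site helix and is often mutated in myelodysplasia, was lower, with 30.8 and 29.7 CPM in EPN24-Cas13d against 79.4 and 90.4 CPM in EPN24. Its log2 fold change was -1.49 (SE 0.19, adjusted p = 7.03e-06; 1.88 with ERCC scaling and 0.77, higher, with the GC trend removed). The log2 ratio of SF3B2 to SF3B1 was 4.52 and 4.60 in EPN24-Cas13d against 0.48 and 0.28 in EPN24 (exact two-sided permutation p = 0.333, the smallest possible).

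SF3B4, the partner of SF3B2, overlapped between groups, at 32.2 and 39.8 CPM in EPN24-Cas13d and 31.7 and 32.7 CPM in EPN24 (0.16, adjusted p = 0.529; 3.52 and higher with ERCC scaling). SF3B5, a small subunit bound to SF3B3, had 8.65 and 9.06 CPM in EPN24-Cas13d against 25.0 and 38.8 CPM in EPN24 (-1.84, adjusted p = 1.73e-04; 1.53 with ERCC scaling). SF3B6, the small subunit placed at the branch site adenosine, had 2 and 2 counts in EPN24-Cas13d against 81 and 68 counts in EPN24. Its log2 count ratio was -6.12 with an interval of -8.02 to -4.73, and its fitted value was -6.01 (adjusted p = 4.31e-08; -2.74, adjusted p = 0.00225, with ERCC scaling). SF3B6 was the most negative member under TMM.

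Within each complex, 1 to 3 messages took most of the counts in EPN24-Cas13d. SNRPB held 86.8% (exact Clopper-Pearson 95% interval 84.2 to 89.0) and 84.3% (81.6 to 86.7) of all Sm ring counts in EPN24-Cas13d, against 21.2% (17.6 to 25.3) and 20.2% (16.9 to 23.9) in EPN24. LSM4 held 82.9% (79.5 to 86.0) and 80.2% (76.5 to 83.6) of the LSM1 to LSM8 counts in EPN24-Cas13d, against 25.5% (20.3 to 31.2) and 19.7% (15.3 to 24.8) in EPN24. SF3A1, SF3B2 and SF3B3, the SF3 genes with the most counts in EPN24-Cas13d, together held 89.3% and 88.3% of the SF3 counts there. In EPN24 they held 55.7% and 53.6%, also most of the SF3 counts. These shares do not depend on the scaling between libraries, and they are of counts, not of counts per length. Their intervals too cover counting error only, and they are too narrow even for that if counts hold both mates of a pair.

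**Figure D3:**
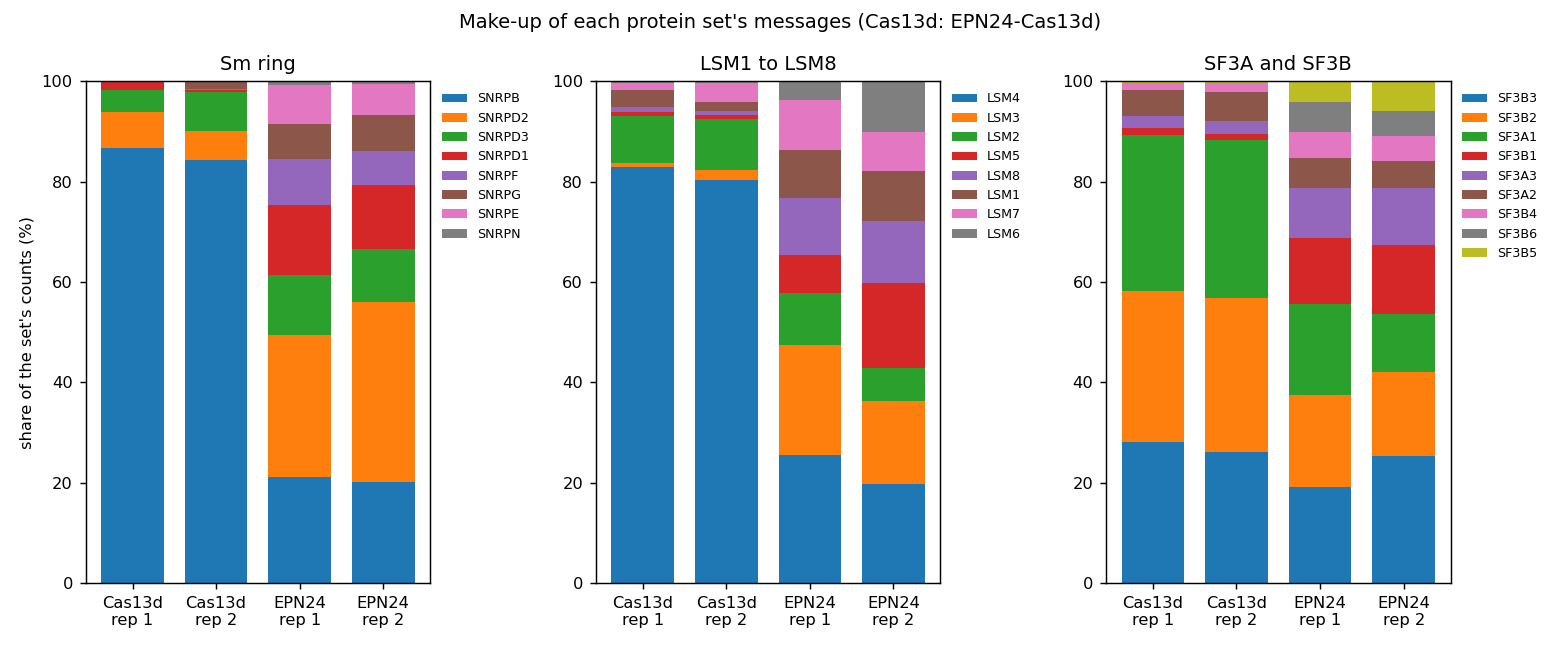
Share (%) of the counts of the Sm ring, of LSM1 to LSM8 and of the SF3 genes held by each gene, one bar per library with EPN24-Cas13d left of EPN24. SNRPB fills at least 84.3% of the Sm ring bar in the EPN24-Cas13d libraries and LSM4 at least 80.2% of the LSM bar, while the largest share in any EPN24 bar is 35.8%, of SNRPD2.

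Summed over a family, SNRP messages reached 281 ± 5.95 CPM in EPN24-Cas13d and 356 ± 50.6 CPM in EPN24 (SD, n = 2 each), a ratio of 0.789. LSM messages summed to 299 ± 8.11 CPM in EPN24-Cas13d and 263 ± 2.703 CPM in EPN24, a ratio of 1.13. SF3 messages summed to 2360.2 ± 11.04 CPM in EPN24-Cas13d and 630.1 ± 38.9 CPM in EPN24, a ratio of 3.75. Per ERCC count the ratios were 8.18 for SNRP, 11.6 for LSM and 38.6 for SF3.

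Levels per length put the members in another order in each group. In EPN24-Cas13d the highest were SF3A1 at 117 ± 0.446 CPM per kb and SF3B2 at 73.2 ± 0.905, followed by SF3B3 at 51.7 ± 3.11 and SF3A2 at 47.2 ± 3.22, and the last pair differed by little more than their SDs. In EPN24 the highest were SNRPD2 at 51.3 ± 16.1 CPM per kb and SF3B5 at 46.2 ± 14.2, which did not differ beyond their spread, followed by SF3B6 at 30.4 ± 2.47, SNRPC at 26.2 ± 6.08 and SNRPA at 25.8 ± 0.743. SF3A1 ranked 9 and SF3B2 ranked 12 in EPN24. SNRPD2 ranked 14 and SF3B6 ranked 26 in EPN24-Cas13d. SNRPA alone was among the top 7 of both groups. Across the tested members the highest level per length exceeded the lowest by 1653-fold in EPN24-Cas13d and by 59.3-fold in EPN24, with LSM8 lowest in both. Length here is that of all annotated exons, 17309 bases for LSM8, so its rank and these ranges depend on that annotation.

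The tested members' folds differed with the base content of their coding parts, which the choice by symbol did not use. All 12 tested members with a coding GC content under 45% were lower, and 11 of these 12 are among those that passed the filter through EPN24. Of the 12 with 55% or more, 7 were higher, 2 were lower and 3 were not called. Among all tested protein-coding genes, 5.96% of the 3288 genes under 45% were higher and 77.2% lower, and 55.9% of the 6712 genes at 55% or more were higher and 25.4% lower. Coding GC content had a median of 58.6% (49.2 to 67.6) in the 8 higher members, 43.4% (39.4 to 59.3) in the 19 lower members and 52.7% (46.5 to 58.4) in the 6 without a call. The 19 lower members include the 12 that had passed the filter through EPN24. The paralogs followed this order, at 57.3% for LSM14B and 47.9% for LSM14A, as did SF3B2 at 56.1% and SF3B1 at 43.0%.

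As a description across genes, which are not independent replicates and share the same 4 libraries, Spearman's rho between coding GC content and the TMM log2 fold change was 0.78 over the 33 tested members and 0.47 over 15103 other protein-coding genes. Over the 21 members that reached the filter's minimum in both groups it was 0.46, and over the 8896 other protein-coding genes that did so it was 0.52. By family, with all tested members, it was 0.85 over the 11 SNRP genes, 0.87 over the 13 LSM genes and 0.40 over the 9 SF3 genes. These family values include the 12 members that had passed the filter through EPN24, all of them lower. No family value was computed without those members. LSM7 (59.3%), SF3B5 (57.5%), SNRPC (54.8%) and SNRPD2 (54.6%) were lower with a GC content near that of the higher members. The coding parts of these 4 genes were short, at 312, 261, 480 and 357 bases.

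Coding length gave rho of 0.66 over the tested members and 0.076 over the other protein-coding genes, and 0.40 and 0.044 over those that reached the minimum in both groups. Of the 18 members with a coding part under 500 bases, 15 were lower, 2 were not called and LSM4 was higher. Of these 15, 11 had passed the filter through EPN24, and the 7 short members that reached the filter's minimum in both groups gave 1 higher, 4 lower and 2 not called. The 18 had a median log2 fold change of -3.06, against -1.55 over 1141 protein-coding genes of that length. Of those 1141 genes 18.8% were higher and 57.9% lower. Of the 10 members with 1000 bases or more, 6 were higher, 2 lower and 2 not called. Their median was 1.96, against -0.26 over 10716 protein-coding genes, of which 39.4% were higher and 41.8% lower. Coding length and GC content themselves had rho of 0.41 over the members and -0.10 over the other genes. The length of the 3′ UTR had rho of 0.00033 over the members. The trends removed in the alternatives were of GC content over the longest transcript and of exon length, not of the coding part. Over the members these had rho of 0.58 and 0.28 with the fold. With that GC trend of all genes removed, 7 of the 8 higher members were still higher. Of the 19 lower members 11 were lower, SNRPG, SNRPD3, LSM5, LSM6 and LSM8 were not called, and LSM14A, SF3B1 and SNRPA1 were higher. On that scale 39% of all genes were higher and 28.3% lower, and with the length trend removed 39.2% were higher and 36.7% lower.

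**Figure D4:**
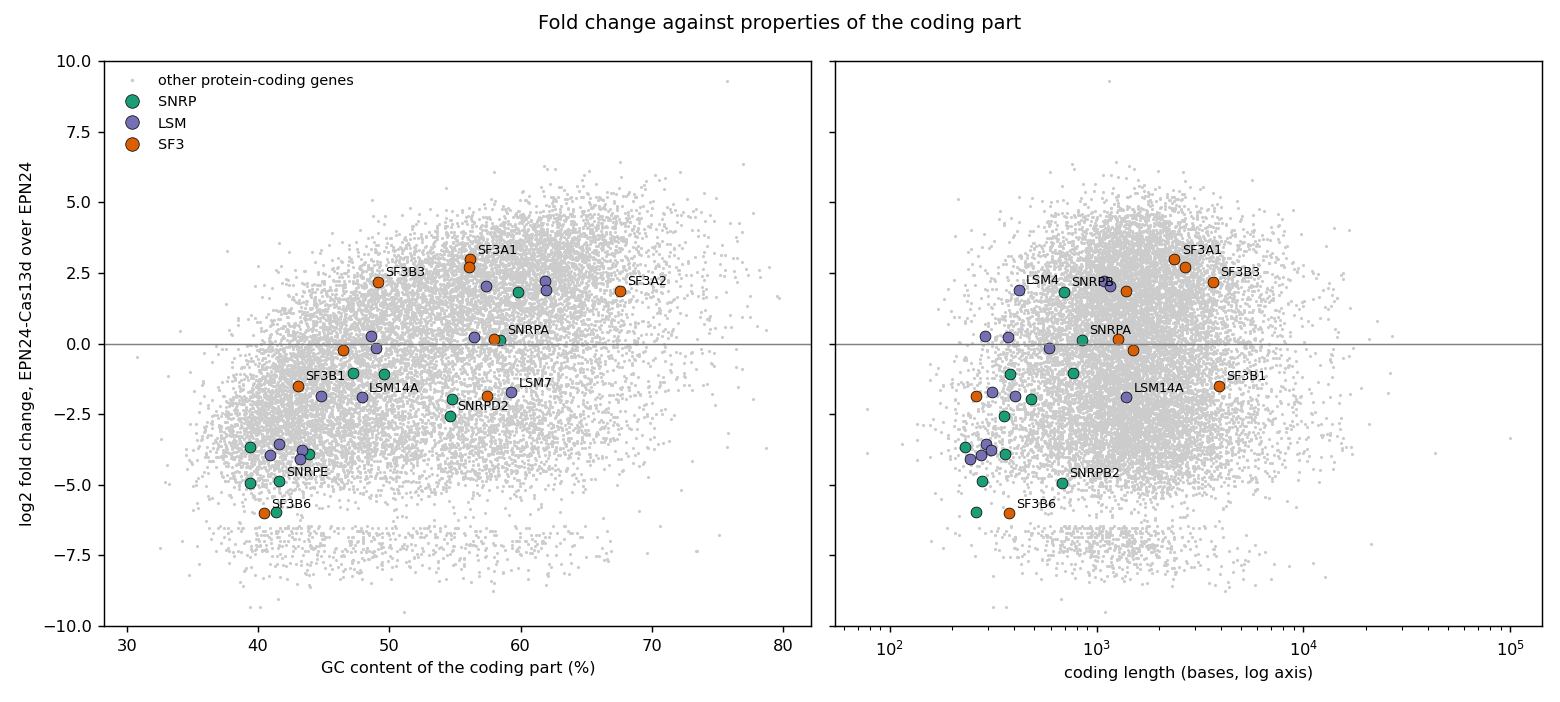
TMM log2 fold change of EPN24-Cas13d over EPN24 against the GC content (%) and the length (bases, log axis) of the coding part, with the 33 tested members in colour by family over the other protein-coding genes in grey. Members under 45% GC lie below 0, and those under 500 bases lie below 0 apart from LSM4, LSM2 and LSM10.

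Genes that work with the core proteins, given by lists chosen by function, held both directions too. Of all tested protein-coding genes 37% were higher and 42.9% lower, the shares to set beside each list here and below. Of 19 genes listed as other snRNP proteins 12 were higher, 3 lower and 4 not called. Their median was 1.30 (4.64 with ERCC scaling, 17 higher and 0 lower). That list includes NAA38, which is not an snRNP protein. SNRNP200, the U5 helicase that unwinds U4 from U6, had 911 and 865 CPM in EPN24-Cas13d against 78.9 and 58.2 CPM in EPN24 (3.69, adjusted p = 1.31e-11; 7.04 with ERCC scaling). PRPF8, the U5 scaffold at the catalytic centre, had 1281 and 1149.8 CPM in EPN24-Cas13d against 157 and 131 CPM in EPN24 (3.08, adjusted p = 2.1e-11; 6.43 with ERCC scaling). Of the 13 tested partners of SF3 at the branch site, 6 were higher, 4 lower and 3 not called, with a median of -0.24 (3.12 with ERCC scaling, 11 higher and 0 lower). U2AF2, which binds the polypyrimidine tract, had 650.3 and 662 CPM in EPN24-Cas13d against 66.9 and 70.3 CPM in EPN24 (3.26, adjusted p = 9.84e-12; 6.62 with ERCC scaling). CHERP had 430.5 and 431 CPM in EPN24-Cas13d against 40.4 and 43.8 CPM in EPN24 (3.36, adjusted p = 2.06e-11; 6.72 with ERCC scaling).

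Genes for assembling and moving Sm rings gave 5 higher, 7 lower and 8 not called among 20 tested, with a median of -0.02 (3.33 with ERCC scaling, 17 higher and 0 lower). GEMIN4, of the SMN complex that loads Sm proteins, had 387 and 381 CPM in EPN24-Cas13d against 25.9 and 35.0 CPM in EPN24 (3.66, adjusted p = 4.34e-11; 7.03 with ERCC scaling). PRMT5, which methylates Sm proteins before assembly, had 243 and 264 CPM in EPN24-Cas13d against 25.6 and 26.7 CPM in EPN24 (3.27, adjusted p = 1.46e-10; 6.64 with ERCC scaling). SMN1 and SMN2, near-identical copies, did not pass the filter.

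Of 10 decapping and decay partners of the cytoplasmic LSM ring and of LSM14, 2 were higher, 4 lower and 4 not called, with a median of -0.32 (3.04 with ERCC scaling, 6 higher and 0 lower). These 2 were the decapping enhancers EDC3, with 533 and 485 CPM in EPN24-Cas13d against 33.9 and 20.4 CPM in EPN24 (4.22, adjusted p = 3.47e-11; 7.57 with ERCC scaling), and EDC4, with 351 and 380.2 CPM in EPN24-Cas13d against 28.8 and 9.47 CPM in EPN24 (4.25, adjusted p = 1.3e-09; 7.59 with ERCC scaling). Of 8 partners of LSM10 and LSM11 in histone message processing, 3 were higher, 4 lower and 1 not called, with a median of -0.50 (2.85 with ERCC scaling, 6 higher and 0 lower). SYMPK, the scaffold symplekin, had 563 and 524 CPM in EPN24-Cas13d against 66.9 and 63.2 CPM in EPN24 (3.06, adjusted p = 2.6e-11; 6.42 with ERCC scaling). ZNF473, a zinc finger protein of the U7 snRNP, had 262 and 215 CPM in EPN24-Cas13d against 24.5 and 25.6 CPM in EPN24 (3.25, adjusted p = 5.36e-10; 6.61 with ERCC scaling).

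**Figure D5:**
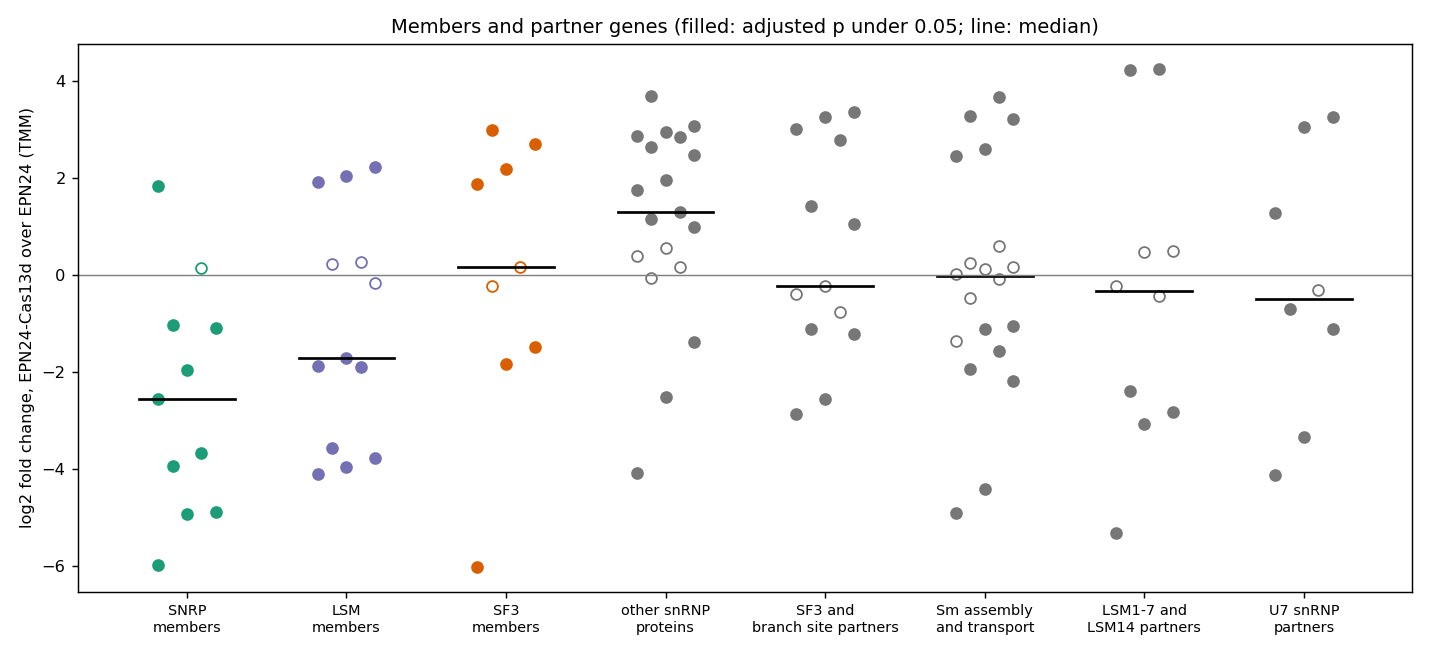
TMM log2 fold change of EPN24-Cas13d over EPN24 for each tested gene of the 3 families and of 5 lists of partner genes, filled where the adjusted p was under 0.05, with a line at each median. SNRP has the lowest median at -2.55 and the list of other snRNP proteins the highest at 1.30.

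Fold changes in the authors' deposited table are on a scale close to the ERCC one. There 20 of the 34 members were higher at an adjusted p under 0.05 and 1, SF3B6, was lower. Of the 39794 genes of all types with an adjusted p there, 30.5% were higher and 0.201% lower. Those genes are not a like comparison for protein-coding members. Under the present ERCC scaling 65.7% of tested protein-coding genes were higher and 1.92% lower, beside 23 and 2 of the 33 tested members. The authors' deposited table gave a log2 fold change of 6.29 for SF3A1, 5.17 for SNRPB and -2.81 for SF3B6. The present ERCC values were 6.34, 5.20 and -2.74. LSM1, LSM7 and SNRPD2, higher in the ERCC-scaled edgeR test at 1.47, 1.63 and 0.82, had adjusted p of 0.209, 0.116 and 0.170 in the authors' deposited table.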

How the data were processed

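Total RNA of culture supernatant was measured in 4 libraries, which were grouped by sample title. Per the labels' protocols, ERCC RNA was added to 200 µl of supernatant, libraries had 17 PCR cycles, and reads were 150-nt pairs. STAR 2.7.10a, featureCounts 2.0.1, DESeq2 1.36.0, Trim Galore 0.6.7 and FastQC 0.11.9, with hg38 and GRCh38, are listed in the submitters' processing notes, and no source used here gives the annotation release, strand or multi-mapping settings. The authors deposited expected counts per gene (read counts with fractions, not normalized). Of whole values above 0, 66.8% to 72.4% were even per library, so counts may hold both mates of a pair. The authors deposited a second table with a mean normalized signal, log2 fold changes, a Wald score, p-values, and a gene length and coordinates (other units) came with the counts. Of 61640 table lines 5 broken ones were left out, leaving 61543 genes and 92 ERCC transcripts.

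Counts were rounded, filtered with filterByExpr (20476 genes kept) and tested with edgeR 4.0.16 under R 4.3.3 (TMM without ERCC, robust quasi-likelihood test, Benjamini-Hochberg over all tested genes, threshold 0.05), after checks on simulated counts. Folds are EPN24-Cas13d over EPN24 on the log2 scale, and the approximate SE is the absolute fold over the square root of F. Coding parts came from the principal GENCODE release 29 transcript. The GC trend removed was that of the gene's longest transcript there, and the length trend that of its exon length. Alternatives were DESeq2 1.42.0 (size factors, Wald test), ERCC scaling, other filters, a replicate block, libraries left out, halved counts, GC or length trends removed and, chosen after seeing the data, subtraction of the olfactory receptor density. Members, lists and tests were chosen with earlier results of these data known. Every member may be named, and of each partner list the 2 genes of smallest p.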

Additional observations from a re-analysis of the deposited data

How the results depend on the processing

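The 8 higher members were higher under 13 of the 14 other settings, and under removal of the GC trend 7 of them were. With ERCC scaling 23 members were higher (SNRP 6, LSM 9, SF3 8) and 2 lower (SNRP 1, LSM 0, SF3 1), and the medians were 1.88 over all members, 0.82 for SNRP, 1.63 for LSM and 3.52 for SF3. With the GC trend removed 12 were lower over all members and 3 in LSM, 2 SNRP and 5 LSM genes were higher, and the medians were -0.51 over all members, -1.33, -0.40 and 0.74 by family (SNRP, LSM and SF3, in that order here and below). With the length trend removed 14 were higher (SNRP 2, LSM 6), with medians of -0.48 over all members, -1.34, -0.48 and 1.40. Without a filter 2 SNRP genes were higher, and the medians were -1.24 over all members, -2.76, -1.36 and 0.52. The stricter filter (10 counts and 10 CPM in 2 libraries) left 5 SF3 genes lower and medians of -2.15 over all members, -3.41 for SNRP and -0.70 for SF3. Halved counts gave -1.69 over all members, -2.94, -1.29 and -0.24, and subtracting the olfactory receptor density gave -1.87 over all members, -3.48, -0.999 and -0.74, with 5 SF3 genes lower. DESeq2's Wald test gave 8 higher and 15 lower members and medians of -2.95 for SNRP and -1.54 for LSM. Over all 31112 genes of that test 18.5% were higher and 20.7% lower. The shares of all genes higher and lower were 14.9% and 22.5% without a filter and 40.7% and 41.7% with the stricter filter. They were 38.3% and 45.6% with halved counts and 33.9% and 36.8% after subtraction. Leaving out 1 library gave medians of -1.72 to -1.13 over all members, -2.99 to -2.27 for SNRP, -1.72 to -0.99 for LSM and -0.0014 to 0.37 for SF3. Why the results moved between settings was not tested.

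Member signs reversed as follows. With ERCC scaling these were LSM1 (1.47), LSM7 (1.63), LSM12 (3.21), LSM14A (1.43), SF3A3 (3.16), SF3B1 (1.88), SF3B5 (1.53), SNRPA1 (2.34), SNRPC (1.42), SNRPD2 (0.82) and SNRPD3 (2.28). With the GC trend removed they were LSM10 (-0.40), LSM12 (1.29), LSM14A (0.85), SF3A3 (0.74), SF3B1 (0.77), SF3B4 (-0.00090), SNRPA (-0.51) and SNRPA1 (1.38), and with the length trend removed LSM12 (0.77) and SF3A3 (0.62). LSM12 (0.20) and SF3A3 (0.14) reversed without a filter, and LSM12 (0.013) in the Wald test. LSM10, LSM2, SF3B4 and SNRPA were -0.63, -0.58, -0.70 and -0.72 with the stricter filter, -0.15, -0.18, -0.24 and -0.27 with halved counts, and -0.61, -0.55, -0.74 and -0.78 after subtraction. Leaving out a library reversed LSM10 (range -0.17 to 0.64), SF3B4 (range -0.0014 to 0.37) and SNRPA (range -0.031 to 0.23).

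Same-numbered replicates did not deviate together (r = 0.0224 over 7379 genes), so the numbers were not taken as pairs. With a replicate block 8 members were higher and 19 lower, the same genes as without it, while over all genes 6545 were higher and 8496 lower. Depth limits 5 members with at most 3 counts in both EPN24-Cas13d libraries. Per length of all annotated exons, 2 tested members lie within 3 times the olfactory receptor density in EPN24.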

Other observations

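The upstream divergent transcript of SNRPA1, the long noncoding RNA SNRPA1-DT, had 167.5 and 143.5 counts in EPN24-Cas13d against 6.5 and 13 counts in EPN24. SNRPA1 itself had 34 and 40 counts in EPN24-Cas13d against 35 and 46 in EPN24, so the noncoding neighbour held more counts than the coding gene in EPN24-Cas13d and fewer in EPN24. The 13 processed pseudogenes of SNRPG summed to 0 and 2 counts in EPN24-Cas13d, against 7 and 29 in EPN24, while SNRPG itself had 0 and 10 counts in EPN24-Cas13d, against 32 and 38 in EPN24. The 11 SNRPC copies summed to 0 and 0 counts in EPN24-Cas13d, against 9 and 11 in EPN24. SNHG14, the long noncoding host gene that overlaps SNRPN, had 8 and 7.5 counts in EPN24-Cas13d against 89.5 and 131.17 in EPN24. On opposite strands of one locus, SF3A2 had 521.5 and 548.5 counts in EPN24-Cas13d against 80 and 76.5 in EPN24, and PLEKHJ1 had 510 and 500.5 counts in EPN24-Cas13d against 33 and 26 in EPN24.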
